A study of Homo sapiens with 6 samples.

Results

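Hippo signalling restrains tissue growth through a kinase chain that ends in LATS1 and LATS2, which phosphorylate the coactivators YAP1 and WWTR1 (the protein called TAZ) and keep them out of the nucleus. Unphosphorylated YAP1 and WWTR1 enter the nucleus, bind TEAD transcription factors such as TEAD1, and drive target genes that include CCN1, CCN2, AMOTL2 and LATS2 itself. FAT1 and FAT2 are giant atypical cadherins of the epithelial cell surface. The fly relative of these cadherins acts upstream of the Hippo kinases, and FAT1 is a recurrent target of mutation in squamous carcinomas.

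The 10 genes described here are FAT1, FAT2, LATS1, LATS2, YAP1, WWTR1, TEAD1, AMOTL2, CCN1 and CCN2, out of 27887 genes in the deposited expression table. Each was found by its gene name, and all 10 passed the filter of a mean FPKM of 1 or more that left 13409 genes for testing. The genes were chosen by pathway and also from their FPKM values in the comparison described below, whose results were already known. Their differences are therefore given as a description with no p-value, and support nothing by themselves. Where 1 of them is termed called below, the word only places it against the threshold used for all genes. It is no support for a change, since the same values helped to choose the gene.

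The expression values are from RNA-seq of KYSE450, an established line of esophageal squamous cell carcinoma. In the shHMGB2 group (3 libraries) the cells carried a virus with a short hairpin RNA against HMGB2, which encodes a DNA-bending chromatin protein, and are labelled as HMGB2 knockdown. In the mock group (3 libraries) the cells received a mock virus and are labelled wild type. The sources used here do not say if that virus held a hairpin. Both groups share the same line and culture medium, and the labels name 1 knockdown virus, so that effects particular to this hairpin cannot be told apart from those of lower HMGB2. Nothing in the labels says whether libraries of a group were separate cultures, so the spread between them may be technical.

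HMGB2 stood at 22.1, 24.5 and 27.8 FPKM (fragments scaled to transcript length and library size) in shHMGB2 replicates 1, 2 and 3, against 116, 111 and 109 FPKM in mock replicates 1, 2 and 3, which fits the labels. Relative depth, read from size factors, spanned 0.699 (shHMGB2 replicate 3) to 1.31 (shHMGB2 replicate 1), and the number of reads per library is unknown. All 6 squamous epithelial markers were expressed, with summed levels of 5061 to 5757 FPKM in shHMGB2 and 5812 to 5920 FPKM in mock. Summed fibroblast markers reached 3.96 to 4.38 FPKM in shHMGB2 and 2.91 to 3.69 FPKM in mock, with 1 of 6 (LUM) at a mean of at least 1 FPKM. Endothelial markers summed to at most 0.69 FPKM and leukocyte markers to at most 0.14 FPKM in any library. The part of these markers in the results was not tested. In bulk RNA, fewer cells of a type and less RNA per cell cannot be told apart.

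One library, mock replicate 1, stood apart in genes with long transcripts, and this touches most of the 10 genes. Over the 205 tested genes whose longest protein-coding transcript exceeds 12000 bases, the median deviation of log2(FPKM + 1) from each gene's mean was 0.14, 0.08 and 0.05 in shHMGB2 replicates 1, 2 and 3. It was -0.27, -0.06 and 0.04 in mock replicates 1, 2 and 3. Over the 2326 genes in the bin of shortest transcripts, mock replicate 1 deviated by 0.13 in the other direction. FAT1 and FAT2 have longest transcripts of 14786 and 14534 bases, TEAD1 of 8477, LATS1 of 7517, LATS2 of 5511, YAP1 of 5398, WWTR1 of 5030 and AMOTL2 of 4521, whereas CCN2 and CCN1 have 2339 and 2290. Each difference below is therefore given with all 6 libraries, without mock replicate 1, and with the length trend of every library removed.

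**Figure D1:**
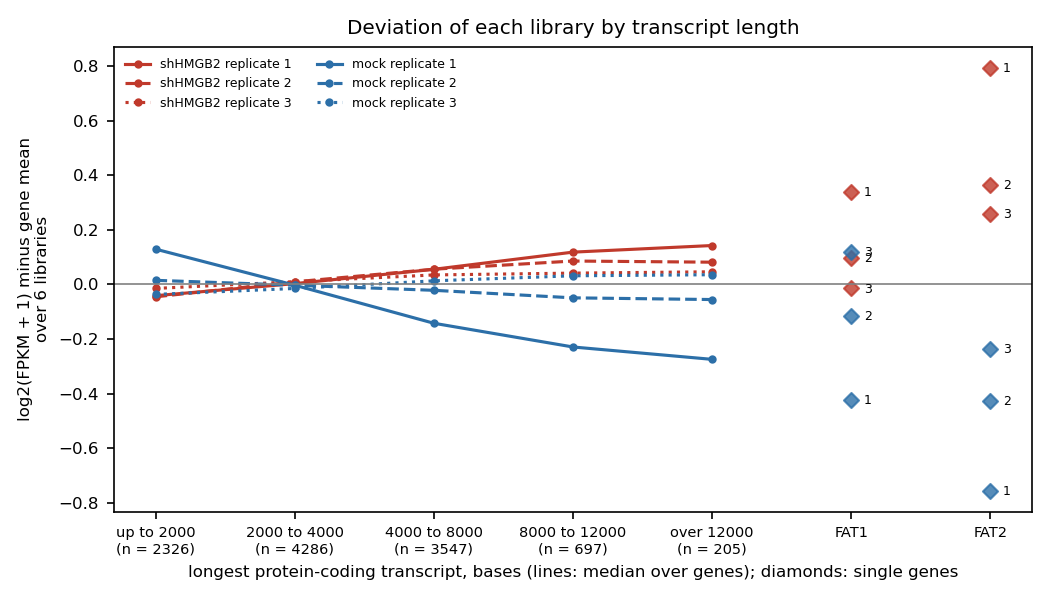
Deviation of log2(FPKM + 1) from each gene's mean over the 6 libraries (y axis), as the median over genes binned by longest protein-coding transcript (x axis, bases; lines, 1 per library) and for FAT1 and FAT2 alone (diamonds, numbered by replicate). Mock replicate 1 falls to a median of -0.27 in the longest bin. In every library FAT2 deviates from its own mean by more, in absolute size, than that bin's median does. In mock replicate 3 the signs differ (-0.23 for FAT2, 0.04 for the bin).

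The promoter of CCN2, a TEAD target gene, is printed as an example with several matches to the TEAD core motif, which few promoters share. The sequence, from RefSeq on GRCh38.p14, is chr6:131951373-131951622 on the minus strand, the 250 bases upstream of the transcription start, with each match to the TEAD core motif GGAATG in capitals. Counted from the start, matches begin at positions -169, -104 and -95.
CCN2 upstream region: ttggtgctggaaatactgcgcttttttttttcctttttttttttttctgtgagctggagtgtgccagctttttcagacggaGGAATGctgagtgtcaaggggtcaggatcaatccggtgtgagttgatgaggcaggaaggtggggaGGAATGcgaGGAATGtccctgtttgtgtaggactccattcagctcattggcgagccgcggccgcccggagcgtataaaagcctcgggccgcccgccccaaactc
The search read both strands, GGAATG or its complement CATTCC, in windows of 300 bases (250 before the start, 50 after). Of 35116 such promoters in the table, 14.03% held at least 1 match and 45, or 0.128%, held 3 or more. The table matched 8 of the 10 genes, with 12 promoters, and did not list CCN1 and TEAD1. Besides CCN2, single matches were found in 1 of the AMOTL2 promoters (position -69), in YAP1 (position -162) and in LATS2 (position 9, after the start). The stretch around the AMOTL2 match (chr3:134374484-134374543, minus strand) and that around the YAP1 match (chr11:102110258-102110317, plus strand) are shown for comparison with CCN2.
AMOTL2 promoter stretch: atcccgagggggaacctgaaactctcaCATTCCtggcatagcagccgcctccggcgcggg
YAP1 promoter stretch: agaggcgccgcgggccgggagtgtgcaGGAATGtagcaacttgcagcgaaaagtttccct
No match was found in the listed promoters of FAT1, FAT2, WWTR1 or LATS1. A match is a description of the letters, not evidence of binding.

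Between shHMGB2 and mock libraries, FAT2 rose and WWTR1 fell, YAP1 and CCN2 had higher levels in every shHMGB2 library without being called, and AMOTL2 and CCN1 had near-equal group means. A gene is termed called where its adjusted p is under 0.05 in a limma fit of log2(FPKM + 1) across all 13409 genes. By that rule 2 of the 10 genes were called, 1 higher and 1 lower, against 6.75% of all genes tested (3.30% higher and 3.45% lower). Among all genes 442 were called higher and 463 lower. When libraries were rescaled by the median of ratios, the split became 349 higher and 571 lower. For 4 of the 10 genes the FPKM ranges of the groups did not overlap, which holds for 35.6% of all genes tested. Since the 10 genes were chosen with this comparison known, nothing is read from these counts. The median log2 fold change was 0.07 over the 10 genes and 0.04 over all genes tested.

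**Figure D2:**
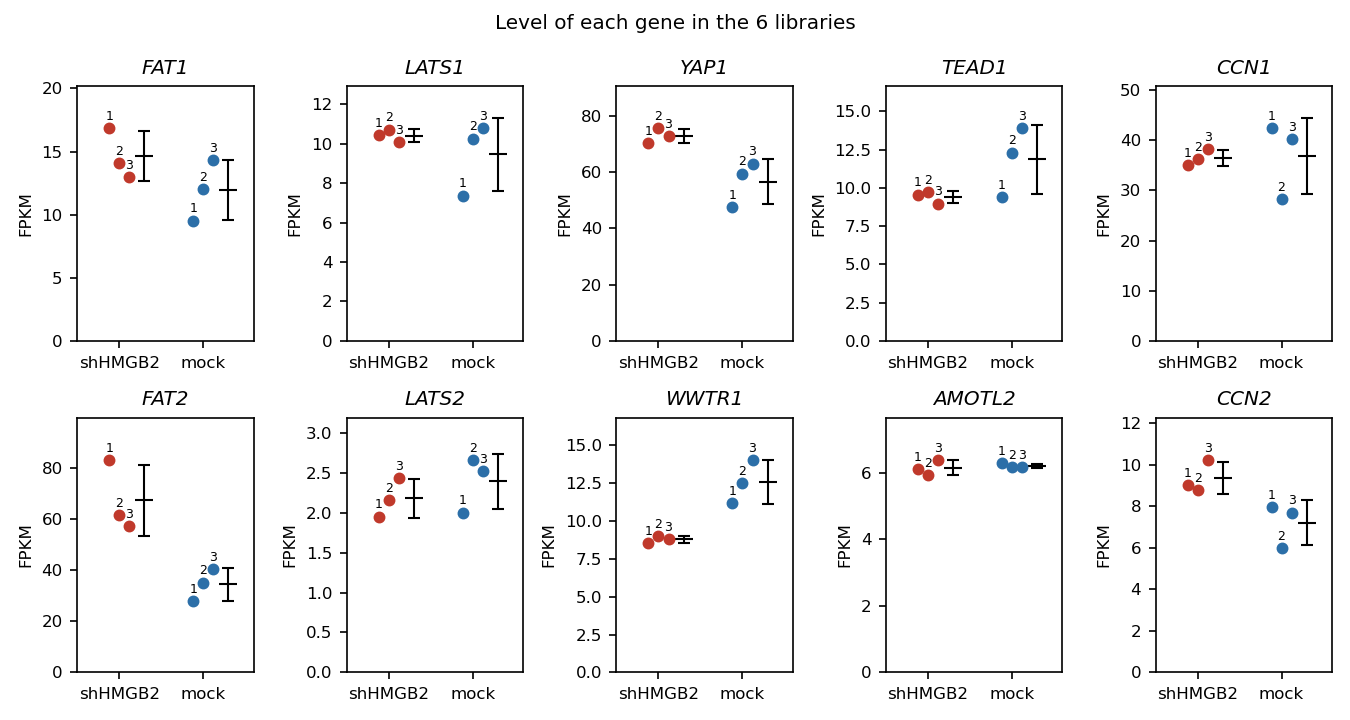
FPKM of each of the 10 genes (1 panel each, y axis from 0) in the 3 shHMGB2 and the 3 mock libraries, with points numbered by replicate and black marks for mean ± SD (n = 3). FAT2, YAP1 and CCN2 are higher in every shHMGB2 library than in any mock library, WWTR1 is lower in every one, and AMOTL2 lies between 5.94 and 6.39 FPKM throughout.

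FAT2, the cadherin expressed mainly in squamous epithelium and cerebellum, had the largest difference of the 10. Its level was 83.1, 61.6 and 57.2 FPKM in shHMGB2 replicates 1, 2 and 3, against 27.8, 35.1 and 40.3 FPKM in mock replicates 1, 2 and 3. Every shHMGB2 library lay above every mock library, with shHMGB2 replicate 1 the highest and mock replicate 1 the lowest. The means were 67.3 ± 13.9 FPKM in shHMGB2 and 34.4 ± 6.28 FPKM in mock (SD, n = 3 each), a ratio of 1.96, and the log2 fold change was 0.94 (SE 0.17). FAT2 lies on chromosome 5 at 151504092 to 151594819 (GRCh38.p14). The log2 fold change was 0.80 (SE 0.16) without mock replicate 1 and 0.76 (SE 0.12) with the length trend removed, and FAT2 was called in both. Among the 205 genes with transcripts over 12000 bases, whose median log2 fold change was 0.18, that of FAT2 ranked 1. FAT2 was no longer called without shHMGB2 replicate 1 (log2 fold change 0.78), shHMGB2 replicate 2 (1.00) or mock replicate 2 (0.97). In these settings the calls over all genes also fell, from 905 to 310, 288 and 323.

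FAT1, its more widely expressed relative, differed less. It had 16.8, 14.1 and 13.0 FPKM in shHMGB2 replicates 1, 2 and 3, against 9.52, 12.01 and 14.3 FPKM in mock replicates 1, 2 and 3. The groups overlap, since mock replicate 3 exceeds shHMGB2 replicates 2 and 3. FAT1, on chromosome 4 at 186587794 to 186726696, was not called, with a log2 fold change of 0.28 (SE 0.15). Without mock replicate 1 the difference was 0.14 (SE 0.12), and with the length trend removed 0.10 (SE 0.09), so most of it moved with the length trend, whose part was not tested. Among the 205 long genes it ranked 57.

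The ratio of FAT2 to FAT1 within a library compares transcripts of nearly equal length. It was 4.94, 4.37 and 4.41 in shHMGB2 replicates 1, 2 and 3, against 2.92, 2.93 and 2.82 in mock replicates 1, 2 and 3. The mock libraries, which spread widely in FAT2 itself, lie close together in this ratio, and the mean ratio was 1.58 times as high in shHMGB2. Other cadherins of this system were scarce in these cells. FAT3 had 0.473 ± 0.0971 FPKM in shHMGB2 and 0.323 ± 0.0757 FPKM in mock, FAT4 had 0.227 ± 0.0416 and 0.147 ± 0.0252 FPKM in shHMGB2 and mock, and the FAT ligands DCHS1 and DCHS2 stayed at or below 0.09 FPKM in every library (SD, n = 3 each). FJX1, the relative of the fly kinase four-jointed that modifies FAT and Dachsous proteins, was tested and had 10.0 ± 0.740 FPKM in shHMGB2 and 10.8 ± 0.950 FPKM in mock without passing (SD, n = 3 each; limma adjusted p = 0.453).

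**Figure D3:**
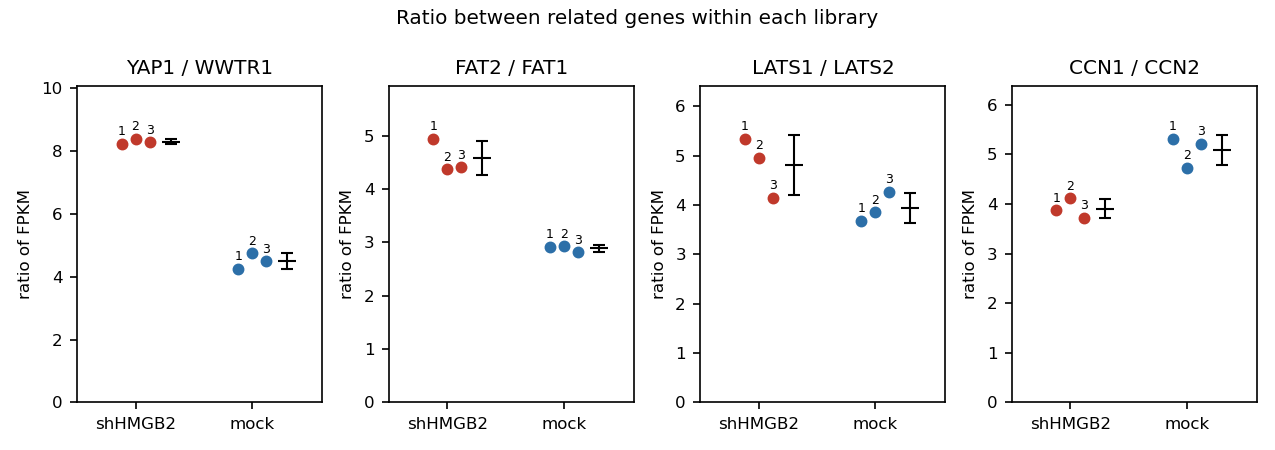
Ratio of FPKM between related genes in each library (y axes from 0; points numbered by replicate, black marks mean ± SD, n = 3), shHMGB2 left and mock right in each panel. The YAP1 to WWTR1 ratio lies at 8.24 to 8.39 in shHMGB2 and at 4.26 to 4.75 in mock, and the groups overlap in the LATS1 to LATS2 ratio. How often ratios of other genes separate the groups was not counted.

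The terminal kinases of the pathway were not called. LATS1 had 10.4, 10.7 and 10.1 FPKM in shHMGB2 replicates 1, 2 and 3, against 7.36, 10.3 and 10.8 FPKM in mock replicates 1, 2 and 3. Mock replicate 1 was the single low library, and mock replicates 2 and 3 lay within or above the shHMGB2 range. The log2 fold change was 0.14 (SE 0.13), and it was -0.01 (SE 0.06) without mock replicate 1 and 0.01 (SE 0.08) with the length trend removed. LATS2, which is both a kinase and a YAP target gene, was the scarcest of the 10. Its level was 1.95, 2.16 and 2.43 FPKM in shHMGB2 replicates 1, 2 and 3, against 2.00, 2.66 and 2.52 FPKM in mock replicates 1, 2 and 3. The groups overlap, and the log2 fold change was -0.09 (SE 0.11). In the authors' deposited table LATS2 had group values of 267 in shHMGB2 and 307 in mock on their normalized scale, the lowest of the 10. FAT2 had the highest group values there, 22963 in shHMGB2 and 12227 in mock. LATS1 lies on chromosome 6 at 149658153 to 149718101 and LATS2 on chromosome 13 at 20973036 to 21061586.

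Of the coactivators, YAP1 was higher and WWTR1 lower in shHMGB2, though only WWTR1 was called. YAP1 had 70.3, 75.6 and 72.8 FPKM in shHMGB2 replicates 1, 2 and 3, against 47.6, 59.4 and 63.0 FPKM in mock replicates 1, 2 and 3. All shHMGB2 libraries were above all mock libraries, and again mock replicate 1 was the lowest. YAP1 was not called, with means of 72.9 ± 2.61 FPKM in shHMGB2 and 56.7 ± 8.05 FPKM in mock (SD, n = 3 each) and a log2 fold change of 0.37 (SE 0.10). The log2 fold change was 0.25 (SE 0.055) without mock replicate 1 and 0.27 (SE 0.07) with the length trend removed.

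WWTR1 had 8.54, 9 and 8.80 FPKM in shHMGB2 replicates 1, 2 and 3, against 11.2, 12.5 and 14.02 FPKM in mock replicates 1, 2 and 3. Here the groups are separate with shHMGB2 below, and the shHMGB2 libraries lie close together. The means were 8.78 ± 0.231 FPKM in shHMGB2 and 12.6 ± 1.42 FPKM in mock (SD, n = 3 each), so that the mean decreased by 30.1%, and the log2 fold change was -0.47 (SE 0.09). WWTR1 was called with all libraries, without mock replicate 1 (-0.54, SE 0.07) and with the length trend removed (-0.55, SE 0.06). It was no longer called without mock replicate 2 (-0.47), nor without shHMGB2 replicate 1 (-0.45), replicate 2 (-0.48) or replicate 3 (-0.47). The calls over all genes also fell in these settings, from 905 to 323 without mock replicate 2. They fell to 310, 288 and 311 without shHMGB2 replicates 1, 2 and 3. YAP1 lies on chromosome 11 at 102110447 to 102233424 and WWTR1 on chromosome 3 at 149517235 to 149724788.

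The ratio of YAP1 to WWTR1, whose longest transcripts have 5398 and 5030 bases, spread little within each group. It was 8.24, 8.39 and 8.28 in shHMGB2 replicates 1, 2 and 3, against 4.26, 4.75 and 4.49 in mock replicates 1, 2 and 3. The mean ratio was 8.30 ± 0.0823 in shHMGB2 and 4.50 ± 0.247 in mock (SD, n = 3 each), 1.84 times as high in shHMGB2. A ratio describes unequal levels and not which gene moved, and both genes were chosen with these values known. Summed, YAP1 and WWTR1 reached 78.9, 84.6 and 81.6 FPKM in shHMGB2 replicates 1, 2 and 3, against 58.8, 71.9 and 77.03 FPKM in mock replicates 1, 2 and 3, so that the groups do not overlap in the sum either. YAP1 supplied most of the sum in both groups.

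TEAD1, the DNA-binding partner, was called in some settings and not in others. It had 9.55, 9.73 and 8.97 FPKM in shHMGB2 replicates 1, 2 and 3, against 9.40, 12.3 and 13.9 FPKM in mock replicates 1, 2 and 3. Mock replicate 1 lay inside the shHMGB2 range and the other mock libraries above it. With all libraries the log2 fold change was -0.29 (SE 0.13) and TEAD1 was not called. Without mock replicate 1 it was -0.43 (SE 0.07), with the length trend removed it was -0.43 (SE 0.08), and TEAD1 was called in both. Over all genes 798 were called without mock replicate 1 and 1321 with the length trend removed, against 905 with all libraries and the trend kept. TEAD1 lies on chromosome 11 at 12674421 to 12944737. The other family members, TEAD2, TEAD3 and TEAD4, did not pass. TEAD4 was the most abundant TEAD, with 30.6 ± 2.43 FPKM in shHMGB2 and 31.0 ± 1.95 FPKM in mock (SD, n = 3 each; limma adjusted p = 0.894). TEAD1 made up 15.1%, 16.5% and 14.9% of the summed TEAD level in shHMGB2 replicates 1, 2 and 3, against 14.7%, 19.4% and 22.1% in mock replicates 1, 2 and 3.

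Of the target genes among the 10, AMOTL2 and CCN1 showed no difference detectable at this precision and CCN2 was higher without being called. AMOTL2, a scaffold that binds YAP1 at junctions and is induced by it, had 6.12, 5.94 and 6.39 FPKM in shHMGB2 replicates 1, 2 and 3, against 6.29, 6.17 and 6.18 FPKM in mock replicates 1, 2 and 3. The mock values lie inside the shHMGB2 range, and the log2 fold change was -0.01 (SE 0.06). It was -0.09 (SE 0.07) with the length trend removed.

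CCN1 and CCN2 encode secreted matricellular proteins that serve as standard readouts of YAP activity. CCN1 had 35.0, 36.2 and 38.1 FPKM in shHMGB2 replicates 1, 2 and 3, against 42.3, 28.3 and 40.2 FPKM in mock replicates 1, 2 and 3. The mock libraries lie on both sides of the shHMGB2 libraries, with mock replicate 2 the lowest of all 6. The log2 fold change was 0.002 (SE 0.14), and without mock replicate 2 it was -0.17 (SE 0.07), also not called. CCN2, whose promoter is printed above, had 9.02, 8.79 and 10.2 FPKM in shHMGB2 replicates 1, 2 and 3, against 7.96, 5.97 and 7.70 FPKM in mock replicates 1, 2 and 3. Each shHMGB2 library was above each mock library, and mock replicate 2 was the lowest, as in CCN1. The log2 fold change was 0.34 (SE 0.11), 0.41 (SE 0.11) without mock replicate 1 and 0.36 (SE 0.11) with the length trend removed. The CCN1 to CCN2 ratio was 3.88, 4.12 and 3.73 in shHMGB2 replicates 1, 2 and 3, against 5.32, 4.73 and 5.22 in mock replicates 1, 2 and 3. CCN1 lies on chromosome 1 at 85580761 to 85583950, CCN2 on chromosome 6 at 131948176 to 131951372 and AMOTL2 on chromosome 3 at 134355345 to 134375417.

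**Figure D4:**
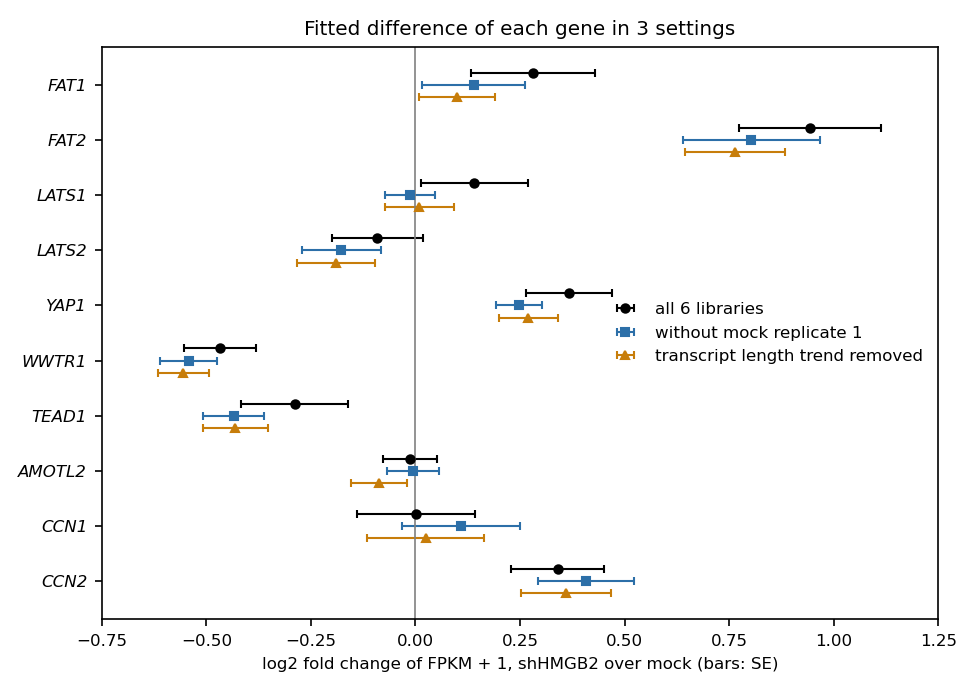
Log2 fold change of FPKM + 1, shHMGB2 over mock, of each of the 10 genes (x axis; bars, SE of the limma fit) with all 6 libraries, without mock replicate 1 and with the transcript length trend removed. FAT2 stays near or above 0.76 and WWTR1 at or below -0.47 in all 3 settings, while FAT1 and LATS1 move toward 0 and TEAD1 moves away from it.

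The log2 fold changes of the authors' deposited table, shHMGB2 over mock, rest on their normalized group values and not on FPKM. In the authors' deposited table they were 0.91 for FAT2, 0.24 for FAT1, 0.10 for LATS1, -0.20 for LATS2, 0.31 for YAP1, -0.58 for WWTR1, -0.39 for TEAD1, -0.07 for AMOTL2, -0.09 for CCN1 and 0.30 for CCN2. Every one of these values is lower in the authors' deposited table than in the limma fit. CCN1 thus has the opposite sign there, and LATS2, WWTR1, AMOTL2 and TEAD1 lie further below 0.

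In absolute terms the 10 genes covered a wide span of FPKM, a measure per transcript length. YAP1 led in both groups, above 89.9% of tested genes in shHMGB2 and 86.7% in mock, and LATS2 was last, above 12.8% in shHMGB2 and 15.7% in mock. In shHMGB2 the order was YAP1, FAT2, CCN1, FAT1, LATS1, TEAD1, CCN2, WWTR1, AMOTL2 and LATS2. Among neighbours in that order, the libraries of YAP1 and FAT2, of TEAD1 and CCN2, and of CCN2 and WWTR1 overlapped. In mock the order was YAP1, CCN1, FAT2, WWTR1, FAT1, TEAD1, LATS1, CCN2, AMOTL2 and LATS2. Neighbours in mock overlapped from CCN1 to FAT2 and from WWTR1 down to AMOTL2, so that only YAP1 at the top, the step from FAT2 to WWTR1 and LATS2 at the bottom stood clear there. WWTR1 thus ranked 8 in shHMGB2 and 4 in mock.

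The rest of the pathway was read from lists of 100 other genes, of which 80 were tested, 0 were higher and 8 were lower in the limma fit. Of those 8, 4 belong to a list of growth genes whose fall in these libraries was known when it was drawn up. Leaving that list out, 4 of 73 genes were called, all lower, and the median log2 fold change was 0.05. The 4 are 5.48% of the 73, against 6.75% called in either direction and 3.45% called lower among all genes tested. The other lists were also chosen with earlier results of these data known, so nothing is read from these counts.

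Upstream components were called in 1 case. Of 16 tested kinases of the Hippo core and its upstream arms and their cofactors (among them STK3, STK4, the scaffold NF2, and the TAOK and MAP4K families), 0 passed and the median log2 fold change was 0.13. It was 0.03 with the length trend removed. MINK1, a MAP4K-family kinase, had the smallest p, with 25.6 ± 2.56 FPKM in shHMGB2 and 20.4 ± 0.602 FPKM in mock (SD, n = 3 each; limma adjusted p = 0.0617). Of 11 scaffolds and junction adaptors, RASSF1 fell and 0 rose. RASSF1, which binds STK3 and STK4, had 13.3, 13.7 and 12.8 FPKM in shHMGB2 replicates 1, 2 and 3, against 18.1, 19.2 and 17.6 FPKM in mock replicates 1, 2 and 3 (log2 fold change -0.44, SE 0.06, limma adjusted p = 0.00901). Its groups do not overlap, and it was called without any single library.

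Of 14 STRIPAK genes, whose phosphatase complex counters STK3 and STK4, 0 passed. None of 13 polarity and adherens junction genes passed, with CTNNA1, the alpha-catenin that tethers YAP1 at junctions, at a limma adjusted p of 0.0679 (log2 fold change -0.20). CTNNA1 was called, still lower, under median-of-ratios scaling and with the length trend removed. Of 4 tested TEAD and VGLL partners 0 passed, with VGLL4, which competes with YAP1 for TEAD, at a limma adjusted p of 0.265 (log2 fold change 0.10). The median log2 fold changes of these lists were 0.02, 0.08 and 0.04, close to the 0.04 of all genes.

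Target genes outside the 10 went lower where they passed. A YAP/TAZ-TEAD target signature had 15 tested members besides the 10 genes, FJX1 and the scaffold PTPN14 of the lists above included. Of these, 3 fell and 0 rose, against 3.45% called lower and 3.30% called higher among all genes tested. This list too was chosen with earlier results of these data known, so nothing is read from the count. The other 12 stayed above the threshold, and log2 fold changes over the list had a median of -0.10. F3, the tissue factor that starts coagulation, had 14.2, 15.3 and 15.0 FPKM in shHMGB2 replicates 1, 2 and 3, against 27.3, 26.2 and 29.5 FPKM in mock replicates 1, 2 and 3 (log2 fold change -0.86, SE 0.07, limma adjusted p = 0.000858). The F3 levels of the groups do not overlap. GADD45A, a growth arrest gene, had 72.3, 78.7 and 76.7 FPKM in shHMGB2 replicates 1, 2 and 3, against 109, 122 and 110 FPKM in mock replicates 1, 2 and 3 (log2 fold change -0.58, SE 0.065, limma adjusted p = 0.00391). NUAK2, a kinase related to AMPK, fell to 4.87 ± 0.367 FPKM in shHMGB2, against 7.44 ± 0.691 FPKM in mock (SD, n = 3 each; log2 fold change -0.52, limma adjusted p = 0.0177). The call of NUAK2 was lost when shHMGB2 replicate 1, 2 or 3 was left out, at a limma adjusted p of 0.0685, 0.0593 and 0.0693. ANKRD1, another standard YAP readout, stayed at or below 0.08 FPKM in every library and was not tested.

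Of 7 growth genes that respond to YAP in other epithelial cells, AREG, CCND1, THBS1 and MYC fell, with log2 fold changes of -1.60, -1.33, -0.70 and -0.39. BIRC5 and EDN1 were among those that did not pass. Many other pathways also regulate these 4 genes. The call of MYC was likewise lost when shHMGB2 replicate 1, 2 or 3 was left out, at a limma adjusted p of 0.0824, 0.0856 and 0.0762. The CCN family outside CCN1 and CCN2 had 1 tested gene, CCN3, with 3.18 ± 0.0436 FPKM in shHMGB2 and 2.62 ± 0.173 FPKM in mock (SD, n = 3 each; limma adjusted p = 0.134).

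**Figure D5:**
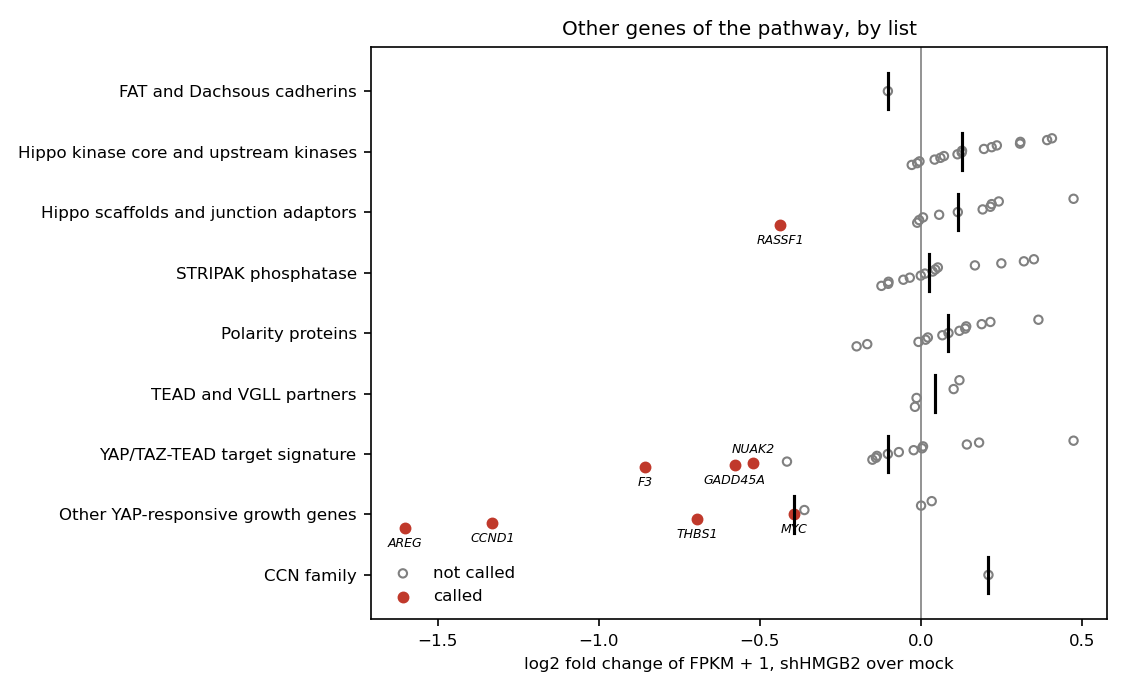
Log2 fold change of FPKM + 1, shHMGB2 over mock (x axis), of the tested pathway genes outside the 10, by list (rows). Filled red points are called genes (adjusted p under 0.05 in limma), open points are not, black bars are list medians, and all 8 named genes lie left of 0.

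The genes whose levels followed FAT1 and FAT2 most closely over the 6 libraries were found by Pearson's r of log2(FPKM + 1) among 8997 other genes averaging 5 FPKM or more. For FAT2 they were RNF213 (r = 0.999), EPB41 (r = 0.997) and ADAR (r = 0.997). RNF213, a giant ubiquitin ligase with a transcript of 21055 bases, had 25.3, 19.3 and 18.1 FPKM in shHMGB2 replicates 1, 2 and 3, against 8.5, 11.1 and 12.5 FPKM in mock replicates 1, 2 and 3. It shares with FAT2 the high shHMGB2 replicate 1 and the low mock replicate 1. For FAT1 they were ZC3H4 (r = 0.996), MACF1 (r = 0.994) and LLGL1 (r = 0.994), of which MACF1 has a transcript of 24828 bases. All points of these correlations share the libraries, their depth and the length trend.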

How the data were processed

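RNA-seq was measured in 6 libraries of KYSE450 cells, 3 shHMGB2 and 3 mock, grouped by their titles. The authors deposited 1 table. Its per-library values are FPKM with 2 decimals, per the file headers. Its group values behave as a normalized signal, and the deposited log2 fold change is the log2 of their ratio. The p-values the authors deposited come from a test not given in the sources used here and are not printed. The submitters' processing notes list Bowtie2 2.2.5, RSEM 1.2.12 and hg38 without saying what each was used for.

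Genes seen in 1 library had group values in whole multiples of a step (100%, tolerance 0.01), which gave the size factors. Read counts are not in the table, so a count test was not run.

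Log2(FPKM + 1) of genes averaging 1 FPKM or more was fitted with limma 3.58.1 in R 4.3.3 (group as the term, mean-variance trend, 2-sided, Benjamini-Hochberg adjustment over all 13409 genes), after the fit was tested on simulated data. Fold changes on this scale understate low genes. Transcript lengths are from GENCODE 29 (82.5% of tested genes matched, older symbols included), and positions and promoters from RefSeq on GRCh38.p14. Longest transcripts need not be those expressed. The length trend was removed per library with a spline (3 df), an alternative chosen after seeing the data.

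The 10 genes and all lists were chosen with earlier results of these data known. Named besides them were the targeted gene, up to 5 called genes of each list with the largest change (or the gene with the smallest p where none was called), and 3 genes most like FAT1 and FAT2. FAT3, FAT4, DCHS1, DCHS2, ANKRD1, STK3, STK4, NF2, TEAD2 to TEAD4, BIRC5, EDN1, LUM and genes named in the closing section were named outside that rule. Some genes of the lists are not reported here by name. Library numbers were checked for pairing: deviations of same-numbered libraries correlated at -0.0116, -0.0377 and -0.0959, so no pairing was used.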

Additional observations from a re-analysis of the deposited data

How the results depend on the processing

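The called genes rest on few libraries. Over all genes 905 were called (442 higher, 463 lower), against 412 (167 higher, 245 lower) with no filter on low values. With the length trend removed the calls rose to 1321 (592 higher, 729 lower). With a replicate block 372 were called (138 higher, 234 lower); same-numbered libraries share only a number. Leaving out 1 library gave 288 to 868 called genes, 96 to 444 higher and 192 to 445 lower. The calls were 310, 288 and 311 without shHMGB2 replicates 1, 2 and 3, and 798, 323 and 868 without mock replicates 1, 2 and 3. Of the 10 genes, 0 were called with no filter and 0 under the replicate block, 2 were lower with the length trend removed, and leaving out 1 library gave 0 to 3 called, 0 to 1 higher and 0 to 2 lower.

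Of the pathway lists, 1 gene was called higher when the filter was a mean of at least 5 FPKM (MINK1, the 1 kinase called) and 1 with the length trend removed (in the STRIPAK list, 1 called). The polarity list had 1 called gene, CTNNA1, under median-of-ratios scaling and 1 with the length trend removed. Leaving out 1 library gave 6 to 10 called pathway genes, 0 to 2 higher and 6 to 9 lower, with 0 to 1 kinases, 0 to 1 STRIPAK genes, 2 to 4 signature genes and 3 to 4 growth genes. NUAK2 and MYC were also not called with no filter or under the replicate block.

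Signs turned in genes near 0. CCN1 went to -0.035 under median-of-ratios scaling. Leaving out 1 library gave CCN1 -0.17 to 0.11 (negative without shHMGB2 replicate 3 or mock replicate 2), LATS1 -0.013 to 0.23 (negative without mock replicate 1) and AMOTL2 -0.037 to 0.0081 (positive without shHMGB2 replicate 2). Among genes named outside the rule or for their likeness, which were refitted in fewer settings, TEAD2 was at 0.017 without mock replicate 1 and 0.001 with the length trend removed, against -0.014 with all libraries. TEAD4 was at 0.025 and 0.035 in those settings, against -0.019, and ZC3H4 was at -0.015 with the length trend removed, against 0.095. The causes were not tested. The number of reads per library is unknown, so the counting error of low genes such as LATS2 could not be given.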

Other observations

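The nearest tested protein-coding genes on each side of the 10 genes, 20 in all, had a median log2 fold change of -0.04. Of these neighbours 1 was called, against 6.75% of all genes tested, so nothing is read from this count. The called neighbour was TLR3, a receptor of double-stranded RNA that lies 499.7 kb from FAT1, with a log2 fold change of 0.52 (limma adjusted p = 0.0152). The neighbours of FAT2, GM2A and ATOX1, had log2 fold changes of -0.18 and -0.18 without passing (limma adjusted p = 0.155 and 0.46). BIRC3, an inhibitor of apoptosis encoded 84.1 kb from YAP1, had a log2 fold change of 0.33 without passing (limma adjusted p = 0.11).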
